A study of Sorghum bicolor with 14 samples.

Results

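The genes described here are 150 sorghum loci whose transcript level was low in all 3 drought groups and higher in all 4 development groups of the middle stem internode. They were taken from 13136 candidate loci, out of 32042 loci named in both deposited tables. A candidate has a single gene name, the same coordinates in both tables, values above 0 in all 7 groups and drought values that span less than 1 on the log2(FPKM + 1) scale. FPKM are fragments scaled to transcript length and library size. Each candidate got a score, the lowest of its 4 stage values minus its highest drought value on that scale, so that a positive score means lower in drought, and the 150 loci of highest score are the members. The members were thus chosen by the values described below. All 7 values of a locus entered this choice, so the gap between drought and development is a description and carries no test.

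All plants were of the sweet sorghum (Sorghum bicolor) variety ICSV12012. The drought plants grew 1 to a pot, were left unwatered once the flag leaf stage was reached, and were harvested at booting when the soil held about 13% (D1), 7% (D2) or 2% (D3) moisture. The development plants grew in a soil bed given nitrogen fertilizer and regular water, and gave 4 groups, at floral initiation and booting and then, with the grain filling, at the milky stage and at soft dough. Each group had 2 libraries of total RNA from the middle internode, 14 in all, and the authors gave 1 FPKM value per locus and group, so the spread between libraries and the depth are unknown and no value below has an error or a replicate check.

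Every drought plant grew in a pot and every development plant in the soil bed, and no watered pot group was analysed here, so the effects of the pot and of drought cannot be told apart. The 2 tables were also quantified separately, each with its own set of loci. In bulk tissue, fewer cells of a type and less RNA per cell cannot be told apart either. The loci carry sorghum identifiers without product names, and the RefSeq gene table of assembly NCBIv3 matched 0 of them. The members are therefore given by identifier, with no gene name or function, and markers of the internode could not be looked up.

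Sweet sorghum stores sugar in its stem, and an internode passes from growth and wall building to storage as the head forms and the grain fills. Booting is the time when the head lies within the flag leaf sheath, the milky stage and soft dough are steps of grain filling, and floral initiation is the start of head formation. Sorghum is known for its tolerance of dry soil. Plants short of water slow the expansion of growing organs, and transcripts of growth and of wall building are among those often found at lower levels in such organs.

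The members were far lower in drought plants than in development plants, as the rule requires. Their median level was 1.64 FPKM in D1, 2.14 FPKM in D2 and 1.36 FPKM in D3, against 22.1 FPKM at floral initiation, 15.4 FPKM at booting, 20.9 FPKM at the milky stage and 12.5 FPKM at soft dough. Over all candidates the medians lay close together, at 7.50, 7.66 and 7.43 FPKM in D1, D2 and D3 and at 7.75, 6.82, 6.72 and 7.03 FPKM in the 4 stages in the same order. The difference between the mean drought and the mean stage value had a median of -2.48 on the log2 scale over the members and of -0.01 over all candidates. Summed over the members, FPKM came to 0.382%, 0.421% and 0.341% of the candidates' sum in D1, D2 and D3, against 2.73% at floral initiation, 2.27% at booting, 3.13% at the milky stage and 1.65% at soft dough. A few loci carry these sums: the 4 members of highest booting value made up 46.3%, 44.4% and 45.7% of the members' sum in D1, D2 and D3, against 28.9% at floral initiation, 50.2% at booting, 20.05% at the milky stage and 45.6% at soft dough.

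Of the candidates, 1591 (12.1%) had any positive score, that is all 3 drought values below all 4 stage values, and 2007 (15.3%) had the mirrored pattern with all drought values above all stages. A gap of at least 1, which is 2-fold with the offset of 1 FPKM, was found for 121 candidates below (0.921%) and 164 above (1.25%). All of these 121 are members, and the other 29 members had a score under 1. The highest score was 3.47, the median of the members 1.32 and the lowest 0.90. As plain FPKM ratios of the lowest stage over the highest drought group, the members ran from 1.93 to 22.5 with a median of 3.53. The ratio was at least 2 for 146 members, at least 5 for 43 and at least 10 for 13.

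**Figure D1:**
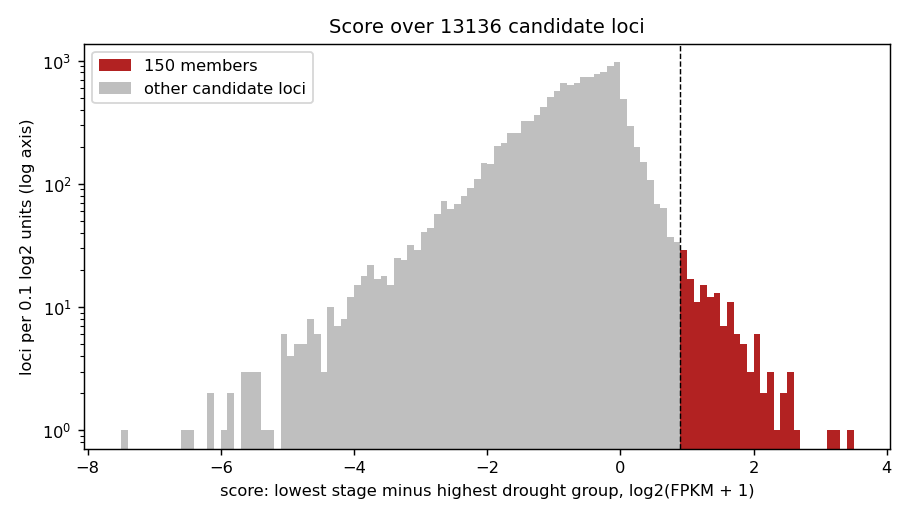
Number of candidate loci (log axis) by score, the lowest stage minus the highest drought group in log2(FPKM + 1), in steps of 0.1. The dashed line marks the lowest score among the 150 members, 0.90, and the members reach 3.47.

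The limit at rank 150 falls in a continuous tail. Just inside it, Sobic.002G232500 scored 0.91, Sobic.010G118300 0.90 and Sobic.001G185800 0.90. Just outside, Sobic.001G482800 scored 0.89, Sobic.008G038000 0.89 and Sobic.001G282100 0.89. The locus at the limit, Sobic.001G185800 (chromosome 1, 15885791 to 15892336), was at 0.0999, 0.210 and 0.242 FPKM in D1, D2 and D3, against 1.32 FPKM at floral initiation, 1.97 at booting, 1.33 at the milky stage and 1.34 at soft dough. Membership at this end thus includes loci of low level.

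Coordinates are those of the deposited tables, whose genome build the sources used here do not give and which do not say whether a start counts from 0 or 1. The widest gap belonged to Sobic.008G030100 (chromosome 8, 2682954 to 2684386). It was at 1.40, 1.40 and 1.32 FPKM in D1, D2 and D3, against 58.5 FPKM at floral initiation, 64.5 at booting, 25.5 at the milky stage and 34.6 at soft dough. The 3 drought values were nearly the same, and even the lowest stage was 18.2 times the highest of them.

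Sobic.002G254900 (chromosome 2, 64136364 to 64138284) came second, at 1.47, 2.19 and 0.728 FPKM in D1, D2 and D3. In the development plants it was at 44.9 FPKM at floral initiation, 36.5 at booting, 30.4 at the milky stage and 31.2 at soft dough. Its stage values were close to each other, with a span of 0.55 on the log2 scale, while its drought values spanned 0.89. Sobic.003G100900 (chromosome 3, 8923837 to 8925084) was at 0.279, 0.578 and 0.972 FPKM in D1, D2 and D3, against 44.1 FPKM at floral initiation, 33.0 at booting, 38.0 at the milky stage and 16.8 at soft dough. Here D3 was the highest drought group, while at Sobic.002G254900 it was the lowest.

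Sobic.003G104600 (chromosome 3, 9355395 to 9357007) was the most abundant member at booting. It stood at 38.7, 57.4 and 50.5 FPKM in D1, D2 and D3, against 354 FPKM at floral initiation, 2664 at booting, 620.3 at the milky stage and 849 at soft dough. Since the drought plants were harvested at booting, the soil bed plants of that stage match them in stage, and against those its D1, D2 and D3 values differed by -6.07, -5.51 and -5.69 on the log2 scale. Its gap to the lowest stage, floral initiation, was much smaller, at 6.17 times the highest drought value.

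Sobic.003G231800 (chromosome 3, 57122090 to 57122904) had the highest FPKM ratio among the members, 22.5. It was at 0.216, 0.0744 and 0.0592 FPKM in D1, D2 and D3, against 57.8 FPKM at floral initiation, 23.0 at booting, 11.5 at the milky stage and 4.85 at soft dough. Its stage values were lower at each step, and the drought values lay below the last of them, as the rule requires. Sobic.004G228900 (chromosome 4, 57867256 to 57868252) stood at 2.79, 5.65 and 5.12 FPKM in D1, D2 and D3, against 31.1 FPKM at floral initiation, 263 at booting, 35.5 at the milky stage and 43.1 at soft dough. Like Sobic.003G104600 it had a single high stage, booting.

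Among the remaining loci of the 15 with the highest scores, Sobic.007G039100, Sobic.002G347500 and Sobic.006G036400 stayed under 1 FPKM in every drought group. Their lowest stage values were 8.35, 9.89 and 7.92 FPKM. Sobic.009G026101, Sobic.007G088000, Sobic.002G339000, Sobic.006G044100 and Sobic.003G083400 had highest drought values of 4.87, 2.44, 1.60, 5.43 and 2.35 FPKM, with lowest stages of 32.4, 18.2, 12.0, 27.9 and 13.7 FPKM. The drought value of Sobic.008G110200 reached 8.61 FPKM in D2, with a lowest stage of 50.6 FPKM, the milky stage. All 15 lay on the same side, as the rule requires, but their levels differed widely, from 0.0592 FPKM in D3 (Sobic.003G231800) to 57.4 FPKM in D2 (Sobic.003G104600).

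**Figure D2:**
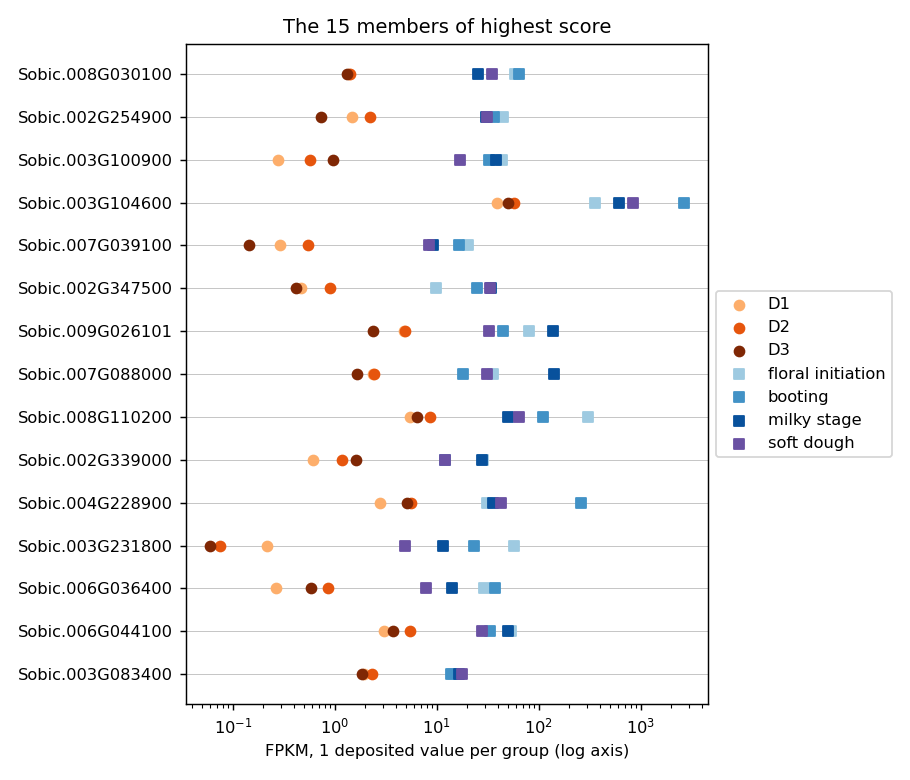
FPKM (log axis) in the 7 groups for the 15 members of highest score, from the highest at the top, with circles for D1, D2 and D3 and squares for the 4 stages. At Sobic.003G231800 the drought values lie under 1 FPKM, while at Sobic.003G104600 they lie between 38.7 and 57.4 FPKM and the booting value is 2664 FPKM.

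Some members stayed abundant in drought. Sobic.001G336050 (chromosome 1, 62453795 to 62456140) was at 325, 353 and 334 FPKM in D1, D2 and D3, against 1149 FPKM at floral initiation, 1293 at booting, 805 at the milky stage and 1457 at soft dough. Sobic.008G132700 (chromosome 8, 55932918 to 55936935) was at 267, 250.3 and 247 FPKM, against 1145 FPKM at floral initiation, 1077 at booting, 627 at the milky stage and 651 at soft dough. The lowest stages of these loci were 2.28 and 2.34 times the highest drought value, below the members' median of 3.53, while at Sobic.003G104600 the ratio was 6.17.

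Sobic.003G151600 (chromosome 3, 16019845 to 16022259) had 133, 113 and 90.3 FPKM in D1, D2 and D3, against 380 FPKM at floral initiation, 1308 at booting, 867 at the milky stage and 592 at soft dough. Sobic.007G014700 (chromosome 7, 1286916 to 1290190) had 41.0, 51.6 and 33.7 FPKM, against 361 FPKM at floral initiation, 624 at booting, 346 at the milky stage and 197 at soft dough. These 4 loci and Sobic.003G104600 are the 5 members of highest booting value, and 3 of the 5 had booting as their highest stage. At the other end, 43 members were under 1 FPKM in every drought group. The lower quartile of the highest drought value was 0.906 FPKM for members and 1.15 FPKM for candidates, so such low levels were common in both. Under 5 FPKM in every drought group were 98 members, beside 5443 of the 13136 candidates. In their lowest stage, 99 members had at least 5 FPKM and 70 at least 10 FPKM. The upper quartile of the lowest stage was 22.2 FPKM for members and 15.3 FPKM for candidates. The median of the lowest stage was 8.65 FPKM for members and 4.14 FPKM for candidates. The rule used these values, so the counts are a description alone.

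**Figure D3:**
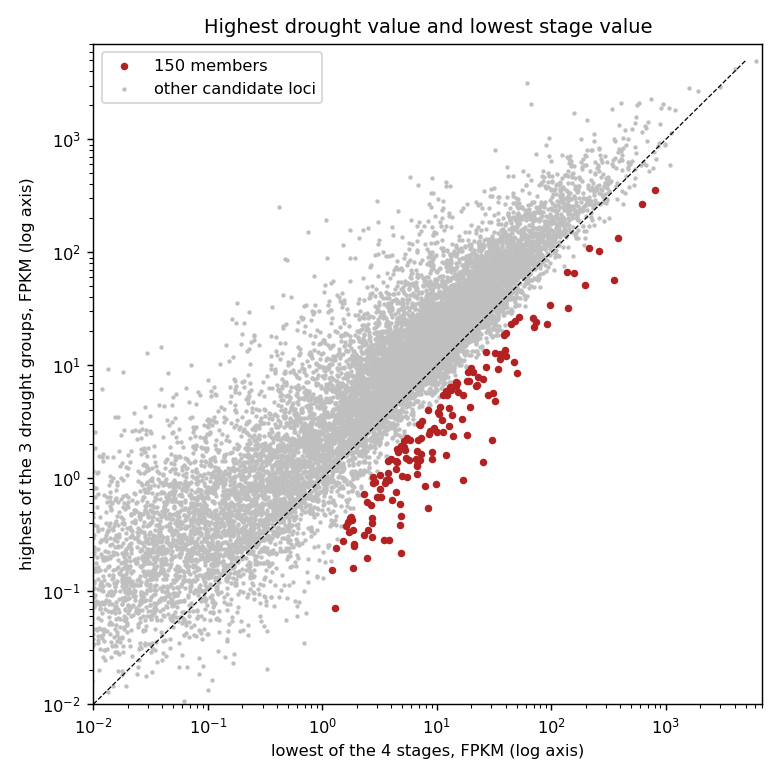
Highest of the 3 drought values against the lowest of the 4 stage values (FPKM, both axes log, loci under 0.01 FPKM not shown) for members and other candidate loci, with a dashed line of equality. The members lie below the line along the whole range, from 0.0714 to 353 FPKM in their highest drought group.

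Measured against booting alone, the stage at which the drought plants were harvested, 148 members were lower by at least 1 on the log2 scale in D1, 146 in D2 and 149 in D3. Over the 15044 loci above 0 in all groups, 11.8%, 11.2% and 12.8% were lower by that much in D1, D2 and D3. The rule used these values, so nothing is read from the excess. The median difference from booting over the members was -2.17 in D1, -2.08 in D2 and -2.30 in D3. The comparisons share the booting value. Only 5 members missed a difference of 1 in some drought group, Sobic.004G286000, Sobic.001G201000, Sobic.010G084300, Sobic.010G064000 and Sobic.007G122800, named here after their values were seen. Sobic.004G286000 missed it in all 3 groups, at -0.93, -0.92 and -0.94.

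The members did not share one course over development. The stages differed by at least 1 on the log2 scale for 113 of them (75.3%), against 48.6% of all candidates, and by at least 2 for 58 (38.7%), against 12.8%. The highest stage was floral initiation for 58 members, the milky stage for 56, booting for 23 and soft dough for 13. Over all candidates these stages were the highest for 31.9%, 25.7%, 21.4% and 21% of loci, against 38.7%, 37.3%, 15.3% and 8.67% of the members. The shares for floral initiation and the milky stage were thus above the background and those for booting and soft dough below it, with no test. The lowest stage was soft dough for 57 members (38%), booting for 38 (25.3%), floral initiation for 34 (22.7%) and the milky stage for 21 (14%), against 18.9%, 21.7%, 31.4% and 27.9% of candidates. All 4 stage values entered the choice of members, so the spans and shares in this paragraph are a description alone. The candidates were also not matched to the members in level. The median lowest stage was 8.65 FPKM for members and 4.14 FPKM for candidates, and the offset makes changes of low loci smaller.

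The 58 members highest at floral initiation had median values of 1.11, 1.26 and 0.797 FPKM in D1, D2 and D3, against 34.1 FPKM at floral initiation, 15.1 at booting, 9.60 at the milky stage and 6.60 at soft dough. In 33 of the 58 the lowest stage was soft dough, in 16 the milky stage and in 9 booting, with no matching count made for candidates. Over all members, 16 were lower at each of the 3 steps with a span of at least 1 (10.7%, against 3.2% of candidates). Sobic.003G031400 (chromosome 3, 2877308 to 2878208) showed this course over a wide range. It was at 3.19, 3.34 and 1.70 FPKM in D1, D2 and D3, against 424 FPKM at floral initiation, 135 at booting, 26.8 at the milky stage and 16.5 at soft dough. Its drought values, from booting plants, lay below every stage value, as the rule requires of all members.

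Sobic.003G136200 (chromosome 3, 12937341 to 12938835) was at 2.67, 5.50 and 3.55 FPKM in D1, D2 and D3, against 275 FPKM at floral initiation, 19.6 at booting, 12.2 at the milky stage and 19.5 at soft dough. It stood out at a single stage, and its later stages lay between 12.2 and 19.6 FPKM. Its score of 1.03 rests on the milky stage, the lowest, and D2, the highest drought group, so the value at floral initiation does not enter it.

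The 56 members highest at the milky stage had medians of 1.83, 2.35 and 1.74 FPKM in D1, D2 and D3, against 15.2 FPKM at floral initiation, 14.6 at booting, 40.6 at the milky stage and 16.3 at soft dough. Their lowest stage was booting for 22, floral initiation for 18 and soft dough for 16, also with no matching count for candidates. Sobic.007G035700 (chromosome 7, 3217011 to 3222717) had the widest span over the stages of all members, 4.75 on the log2 scale. It was at 1.70, 2.79 and 3.31 FPKM in D1, D2 and D3, against 19.6 FPKM at floral initiation, 11.1 at booting, 323 at the milky stage and 77.3 at soft dough. Of the 15 top-scoring loci, Sobic.002G347500, Sobic.009G026101 and Sobic.007G088000 belong to this set.

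The 23 members highest at booting had higher drought levels than the other sets, with medians of 6.06, 6.43 and 5.12 FPKM in D1, D2 and D3, against 31.8 FPKM at floral initiation, 51.8 at booting, 24.9 at the milky stage and 25.3 at soft dough. Of the 15 top-scoring loci the set holds Sobic.008G030100, Sobic.003G104600, Sobic.004G228900 and Sobic.006G036400. The 13 members highest at soft dough had medians of 1.11, 1.34 and 1.40 FPKM in D1, D2 and D3, against 8.35, 6.67, 11.8 and 13.9 FPKM in the 4 stages from floral initiation to soft dough. Of these 13, 3 were higher at every step with a span of at least 1 over the stages (Sobic.005G109000, Sobic.002G328300 and Sobic.002G333300, named after their values were seen), which is 2% of the members and 2.34% of candidates. Sobic.002G328300 was at 0.0714, 0.0358 and 0.0277 FPKM in D1, D2 and D3, against 1.30, 2.44, 8.50 and 13.9 FPKM from floral initiation to soft dough.

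**Figure D4:**
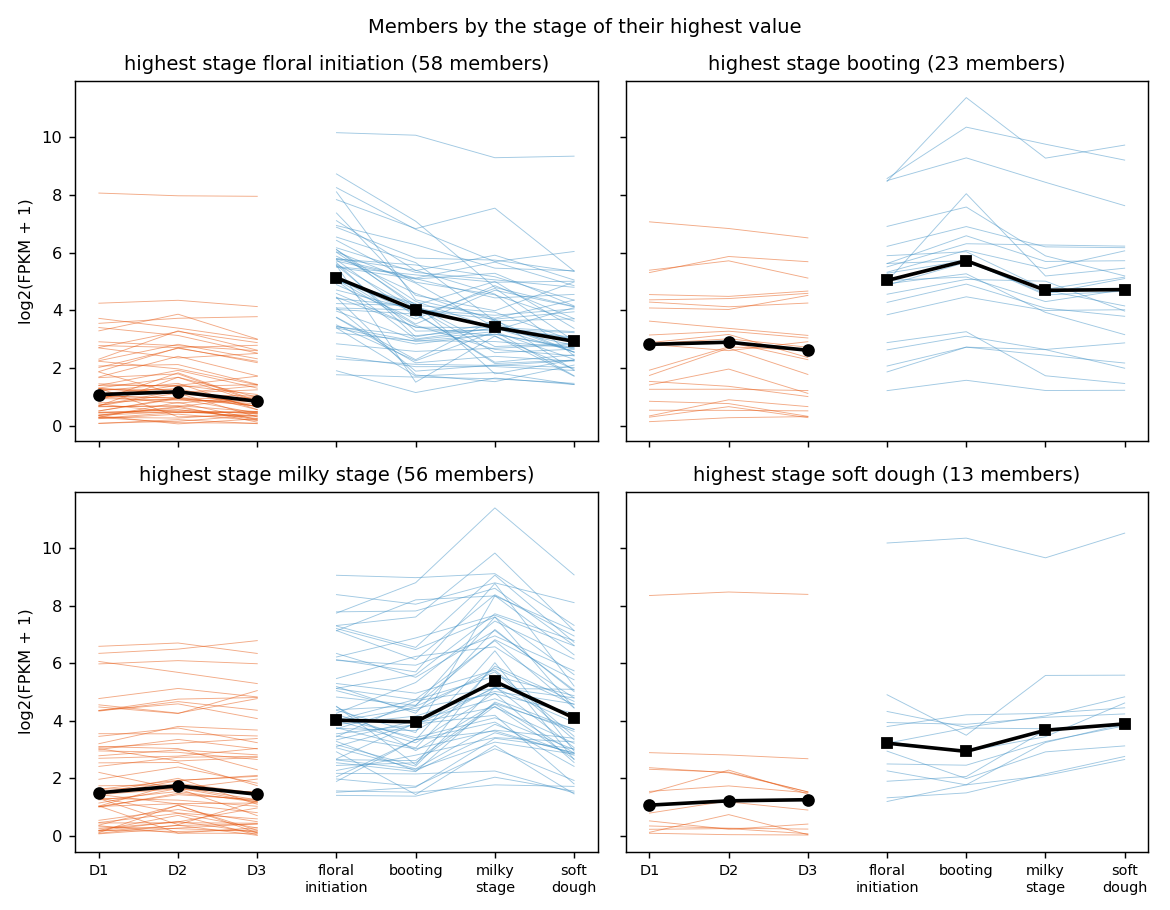
Values of the members in log2(FPKM + 1) over the 7 groups, in 4 panels by the stage of the highest value, with thin lines for single members (D1 to D3 in orange, stages in blue) and thick lines for the median at each group. The panels hold 58, 23, 56 and 13 members, and in each the drought medians lie below the stage medians while the course over the stages differs.

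For 37 members (24.7%, against 51.4% of candidates) the stages stayed within 1 on the log2 scale. With the offset this can still be more than 2-fold in FPKM, as at Sobic.010G064000 with 2.74 at floral initiation and 1.22 at booting. Sobic.004G128100 (chromosome 4, 16068917 to 16075291) had the narrowest span over the stages, 0.23. It was at 0.682, 0.366 and 0.379 FPKM in D1, D2 and D3, against 3.97 FPKM at floral initiation, 3.37 at booting, 3.25 at the milky stage and 3.79 at soft dough. Next came Sobic.010G223500 and Sobic.006G140200, with spans of 0.26 each, drought values up to 0.249 and 1.05 FPKM, and lowest stages of 1.87 and 4.96 FPKM. These 3 loci were chosen for their narrow span after the values were seen.

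Within drought the rule limits the span to less than 1 but does not fix an order. D3 was the lowest drought group for 84 members (56%), D1 for 46 (30.7%) and D2 for 20 (13.3%), against 35.2%, 32.9% and 31.9% of candidates. D2 was the highest drought group for 76 members (50.7%), D1 for 44 (29.3%) and D3 for 30 (20%), against 30.5%, 30.5% and 39% of candidates. The driest soil thus had the lowest value more often, and the middle one the highest value more often, than among all candidates, with no test of either share. D3 was below D1 for 96 members (64%), against 48.4% of candidates.

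The drought span, which the rule keeps under 1, had a median of 0.45 over the members and 0.32 over all candidates. The median gap of the members to their lowest stage was -1.32. The median difference of D3 from D1 was -0.07 on the log2 scale over the members and 0.01 over all candidates. The drought values of 84 members lay within 0.5 of each other. The upper quartile of the span was 0.69 over the members and 0.53 over all candidates, so the members were not the steadier set within drought. The level of the loci moved with the order. Of the 98 members under 5 FPKM in every drought group, D3 was the lowest in 63 (64.3%), against 44.3% of the 5443 candidates of that level. Of the 52 members that reached 5 FPKM in a drought group, it was the lowest in 21 (40.4%), against 28.8% of 7693 candidates. This division by level was chosen after the data were seen, and the part of level in the order was not tested.

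The widest differences within drought show both directions. Sobic.005G055600 (chromosome 5, 5606564 to 5613004) was at 1.44, 1.18 and 0.232 FPKM in D1, D2 and D3, against 17.8 FPKM at floral initiation, 16.9 at booting, 5.70 at the milky stage and 6.20 at soft dough, and its D3 value differed from D1 by -0.99. Sobic.007G109900 and Sobic.010G219800 followed with -0.94 and -0.89, the first of them already low in D2 (0.236 FPKM, and 1.47 FPKM in D1). In the other direction Sobic.006G083000 (chromosome 6, 45173510 to 45179296) was at 1.22, 2.14 and 2.94 FPKM in D1, D2 and D3, a difference of 0.83, against 10.1 FPKM at floral initiation, 7.15 at booting, 11.8 at the milky stage and 9.53 at soft dough. Sobic.001G193600 and Sobic.002G339000 differed by 0.72 and 0.69, and were likewise highest in D3 and lowest in D1.

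**Figure D5:**
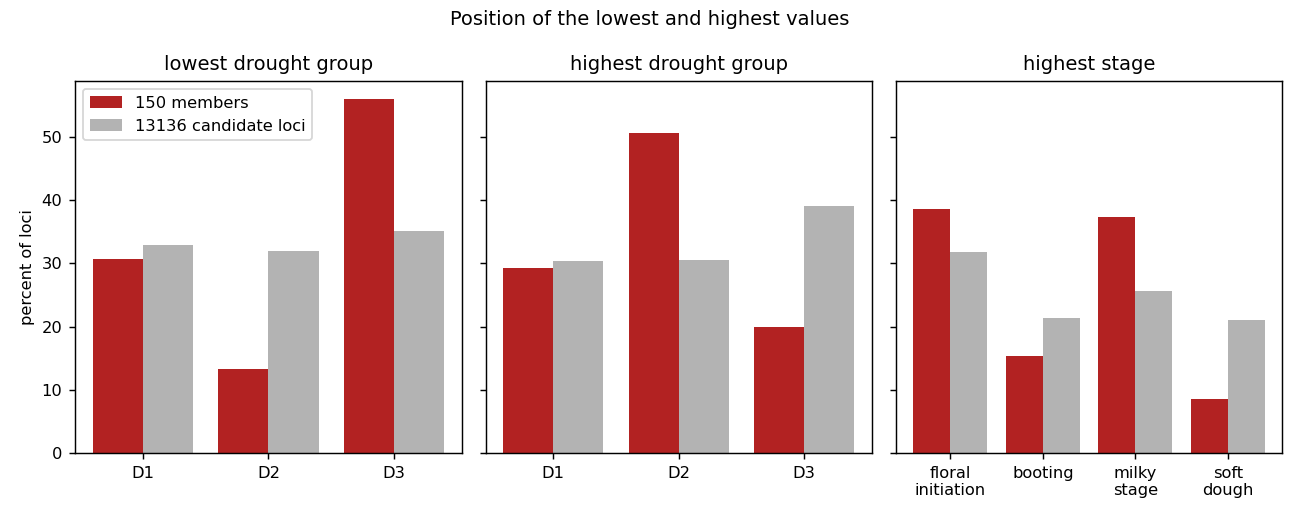
Percent of the 150 members and of the 13136 candidate loci by their lowest drought group, their highest drought group and their highest stage. D3 is the lowest drought group for 56% of members and 35.2% of candidates, and D2 the highest for 50.7% and 30.5%.

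The members were spread over all 10 chromosomes. Chromosome 1 held 35 of them (23.3%, against 18.9% of candidates), chromosome 10 held 19 (12.7%, against 8.05%) and chromosome 4 held 11 (7.33%, against 11.7%). Chromosome 3 held 23 and chromosome 2 held 21, or 15.3% and 14% of members beside 15.2% and 12.9% of candidates. The other 5 chromosomes held between 5 and 11 each. The loci of the members were somewhat shorter, with a median length of 3352.5 bases against 4090.5 for all candidates, introns included, and ranged from 576 to 15868 bases.

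Pairs of neighbouring members were counted without a matching count for other sets of loci, so whether they are many or few was not tested. In 2 pairs no other named locus lay between the members, and 3 more pairs had up to 5 named loci between them. The first pair is Sobic.002G261000 (chromosome 2, 64609749 to 64610770) and Sobic.002G261100 (64619675 to 64620505), with 8905 bases between them. Sobic.002G261000 was at 0.285, 0.0731 and 0.0700 FPKM in D1, D2 and D3, against 8.76 FPKM at floral initiation, 3.79 at booting, 11.0 at the milky stage and 6.40 at soft dough. Its neighbour was at 7.03, 9.23 and 7.14 FPKM in D1, D2 and D3, against 34.0, 47.4, 209 and 109 FPKM in the 4 stages in the same order. Both were highest at the milky stage, and Sobic.002G261100 was the more abundant in all 7 groups.

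The second pair is Sobic.010G066601 (chromosome 10, 5323772 to 5326218) and Sobic.010G066700 (5341283 to 5343838), 15065 bases apart. Sobic.010G066601 was at 0.179, 0.199 and 0.0589 FPKM in D1, D2 and D3, against 3.81 FPKM at floral initiation, 2.43 at booting, 3.29 at the milky stage and 5.31 at soft dough. Sobic.010G066700 was at 0.149, 0.118 and 0.159 FPKM, against 1.87, 2.24, 9.51 and 7.16 FPKM in those stages. Both were under 0.2 FPKM in every drought group, with Sobic.010G066601 the higher in D1 and D2 and the lower in D3, and their highest stages differed, soft dough for Sobic.010G066601 and the milky stage for Sobic.010G066700. Whether neighbours are copies of each other, which could share fragments, cannot be seen from identifiers.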

How the data were processed

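The authors deposited FPKM, 1 value per locus and group, in a development and a drought table. The sources used here do not give how the libraries were combined into it. The submitters' processing notes name HISAT2 2.0.5, Bowtie2 2.2.9, cutadapt 1.8.1 and, with no version, Cuffdiff. Per the labels' protocols the libraries came from a stranded total RNA kit.

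The tables were joined on gene name: 31084 single names were in both, 26332 with identical coordinates, 15044 of these above 0 in all groups and 13136 with a drought span under 1. The 11288 loci listed at 0 in some group were left out, since a 0 can be a failed estimate. Values were compared as log2(FPKM + 1), an offset that makes changes of low loci smaller than their ratios. No test was possible with 1 value per group, and no interval is given because depth is unknown. Shares among members are set beside those over all candidates.

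The rule for members, and all lists, were chosen with earlier results of these data known. Named loci are the 15 of highest score, 3 on each side of the limit, the 5 of highest booting FPKM, the 3 with the widest span over stages, the 3 with the widest D3 to D1 difference in each direction, and adjacent pairs; others are marked in the text. Lists by product name could not be formed. Python 3.11.15 with pandas 2.3.3 and numpy 2.4.6 was used. The ranking was run on simulated loci with nearly equal stage values and planted drops in drought. Real stage values differ, so that run checks the code alone and says nothing about the member list. Alternatives were other offsets, scalings, filters and groups in the score.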

Additional observations from a re-analysis of the deposited data

How the results depend on the processing

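Of the 150 members, 147 stayed among the 150 highest scores with median-of-ratios scaling, 131 with quantile normalization and 142 with a minimum of 5 FPKM in some group. With an offset of 0.1 the number was 85, with an offset of 5 it was 99, and with a drought span under 0.5 it was 84, a limit that only 84 members meet. Leaving out 1 group from the score kept between 100 (soft dough) and 134 (milky stage) of them, no limit on the drought span 107, and coordinates free to differ 121. The 121 loci with a score of at least 1 became 67 with an offset of 5 and 61 with a drought span under 0.5. They became 211 without floral initiation, 221 without soft dough and 214 without D2, since fewer groups limit the score. Where a drought group was left out, the span limit also covered only the remaining drought groups, so the filter changed too. With quantile normalization 15 members were highest at booting, against 23. The remaining counts of highest stage, lowest drought group and difference from booting moved by less than 1.5 times under the offsets, scalings and minimum tried, with D3 the lowest drought group for 70 to 86 members. With an offset of 0.1 the milky stage (59) passed floral initiation (57) as the most frequent highest stage. No paired analysis was possible because each group has 1 deposited value, and single libraries could not be left out for the same reason. Depth is unknown, so low values have no detection limit.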

Other observations

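Loci outside the 13136 candidates also reached the members' lowest score. Each set counted here misses only the condition named and meets the other conditions of the rule, with all stage values above 0. There were 36 among 3442 loci whose coordinates differ between the tables and 51 among 1908 with a drought span of 1 or more. There were 6 among 395 loci that join several genes, and 3 among 645 with a drought value listed at 0. Sobic.001G422300, whose coordinates differ, was at 0.832, 1.55 and 1.03 FPKM in D1, D2 and D3, against 77.3 FPKM at floral initiation, 36.1 at booting, 18.7 at the milky stage and 15.1 at soft dough. Sobic.006G149400, with a drought span of 1.55, was at 1.15, 5.28 and 2.83 FPKM, against 168, 258, 149 and 57.2 FPKM in those stages. Sobic.006G029550 was listed at 0 in all 3 drought groups, against 2.32, 1.70, 2.14 and 0.906 FPKM from floral initiation to soft dough. These loci were chosen after their values were seen.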
